A study of Homo sapiens with 24 samples.

Results

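The replication-dependent histone genes encode the linker histone H1 and the core histones H2A, H2B, H3 and H4, which wrap newly made DNA into nucleosomes. They were taken as every probe of the deposited signal table whose platform gene symbol begins with H2AC, H2BC, H3C or H4C and a digit, or is H1-1 to H1-5. This gave 78 of the 47231 probes on the array, for 68 of 20046 named genes. The 5 classes had 5 probes for H1, 19 for H2A, 23 for H2B, 16 for H3 and 15 for H4. In the RefSeq annotation 54 of the genes lie on chromosome 6, 13 on chromosome 1 and 1 on chromosome 12.

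RNA came from OCI-AML3, an established human acute myeloid leukaemia line engineered to carry luciferase and GFP, grown in NSG mice, an immunodeficient strain without mature lymphocytes of its own. Cells were sorted on GFP (spelled GEP in the design text) and human CD45 from femoral bone marrow, spleen and peripheral blood of 8 mice, giving 24 Illumina BeadChip arrays in 9 groups. All mice carried the leukaemia: 3 control mice had no treatment and were harvested on day 42 after inoculation, 3 mice had the CXCR4 inhibitor LY2510924 for 24 h and were harvested on day 41, and 2 mice had it for 72 h and were harvested on day 43. The drug was injected daily under the skin at 2.5 mg/kg, and the sample labels spell it LY2510294. CXCR4 is the chemokine receptor that holds leukaemic and blood-forming cells in the marrow. A single cell line was used, so the mice are replicates of the host and not of the leukaemia, and the harvest day and the treatment group cannot be told apart.

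Replication-dependent histones are made in bulk during S phase, when the cell needs a nucleosome for each stretch of copied DNA. Their messenger RNAs end in a conserved stem-loop instead of a poly(A) tail. The stem-loop binding protein SLBP and the U7 snRNP, with its subunits LSM10 and LSM11, make that end, and the messages are degraded when DNA synthesis stops. A subset of the genes, among them H2BC12, H2BC5, H2BC21, H2BC4 and H2AC6, is known to give polyadenylated messages as well, which can persist in cells that no longer divide. The labelling kits used here copy RNA from an oligo(dT) primer, so the arrays read mainly the polyadenylated part of the pool, and a difference in histone signal can be a difference in transcript amount or in the share with a tail. Which of these moved was not tested.

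The promoters of the genes are short and carry the same few elements, which are shown for 4 of the genes that the results turn on. In the 250 bases before the start, searched on both strands in RefSeq sequences of GRCh38.p14 for 63 of the 68 genes, the TATA box (TATAAA) was found in 66.7% against 11.1% of 27305 promoters. The CCAAT box (CCAAT, or ATTGG on the other strand) was found in 84.1% against 33%, and the octamer (ATTTGCAT) in 41.3% against 1.7%. CCAAT was in 100% of the H1, H2A, H2B and H3 promoters and in 23.1% of those of H4. The octamer, the element that the factor OCT1 binds in H2B genes, was in 77.8% of the H2B and 68.8% of the H2A promoters, in 9.1% of H3, and in 0% of H1 and H4. H3C11, H3C12, H4C3, H4C1 and H2AC12 were not matched. The 150 bases before each start follow, 5′ to 3′ on the strand of the gene, with these motifs in capitals. H2BC12 is at chr6:27146859-27147008 (minus strand), H2BC5 at chr6:26157971-26158120 (plus strand), H2AC18 at chr1:149842751-149842900 (minus strand) and H4C8 at chr6:26285535-26285684 (minus strand).
H2BC12: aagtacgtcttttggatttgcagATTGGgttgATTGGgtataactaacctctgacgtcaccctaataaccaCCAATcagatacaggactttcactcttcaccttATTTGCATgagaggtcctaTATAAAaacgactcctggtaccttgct
H2BC5: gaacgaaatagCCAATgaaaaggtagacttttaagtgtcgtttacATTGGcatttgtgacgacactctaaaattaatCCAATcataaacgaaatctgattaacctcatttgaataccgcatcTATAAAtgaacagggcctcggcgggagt
H2AC18: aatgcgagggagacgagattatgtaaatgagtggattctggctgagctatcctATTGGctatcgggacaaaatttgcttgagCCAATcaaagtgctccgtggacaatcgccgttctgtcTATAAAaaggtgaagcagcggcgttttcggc
H4C8: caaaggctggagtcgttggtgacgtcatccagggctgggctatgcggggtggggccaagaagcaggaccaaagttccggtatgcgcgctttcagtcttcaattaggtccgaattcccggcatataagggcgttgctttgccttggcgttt
H2BC12 has 1 TATA box, 3 CCAAT boxes and 1 octamer in this stretch, H2BC5 has 1 TATA box and 3 CCAAT boxes, H2AC18 has 1 TATA box and 2 CCAAT boxes, and H4C8 has 0 of the 3 motifs.

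Most histone probes were near background in these cells. A probe was called detected at a detection p under 0.01 and was tested when it was detected on at least 3 of the 24 arrays. Of the 78 histone probes 24 were detected on no array, 19 on 1 or 2, and 35 were tested, for 31 genes. At the edge of this filter 3 tested probes were detected on exactly 3 arrays and 10 untested probes on exactly 2. Detected on every array were 11 probes, those of H1-2, H2AC18 (both probes), H2AC19, H2AC20, H2AC25, H2BC12 (probe 1), H2BC21, H4C3, H4C8 and H4C12. By class, 2 of 5 H1, 10 of 19 H2A, 7 of 23 H2B, 7 of 16 H3 and 9 of 15 H4 probes were tested. Of the chromosome 1 probes 13 of 18 were tested, and of the chromosome 6 probes 22 of 58.

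More of the histone probes were detected in blood than in marrow. On the 8 marrow arrays between 12 and 29 of the 78 were detected, with a median of 19.5. Spleen arrays had between 18 and 33, with a median of 23, and blood arrays between 21 and 46, with a median of 27.5. The ranges overlapped, and the highest number came from the 72 h blood array of mouse 8. Where a gene has 2 tested probes they are numbered from the brighter one: H2AC18 (ILMN_2144426 and ILMN_1659047), H2BC12 (ILMN_1796179 and ILMN_1813314), H2BC5 (ILMN_1651496 and ILMN_1758623) and H3C13 (ILMN_3249188 and ILMN_1664706). Histone paralogues of a class encode nearly identical proteins, and the probe sequences were not used here. Signal from a close copy (for example H2AC18 and H2AC19, H3C13 and H3C15, H4C14 and H4C15) therefore cannot be told apart by symbol alone.

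**Figure D1:**
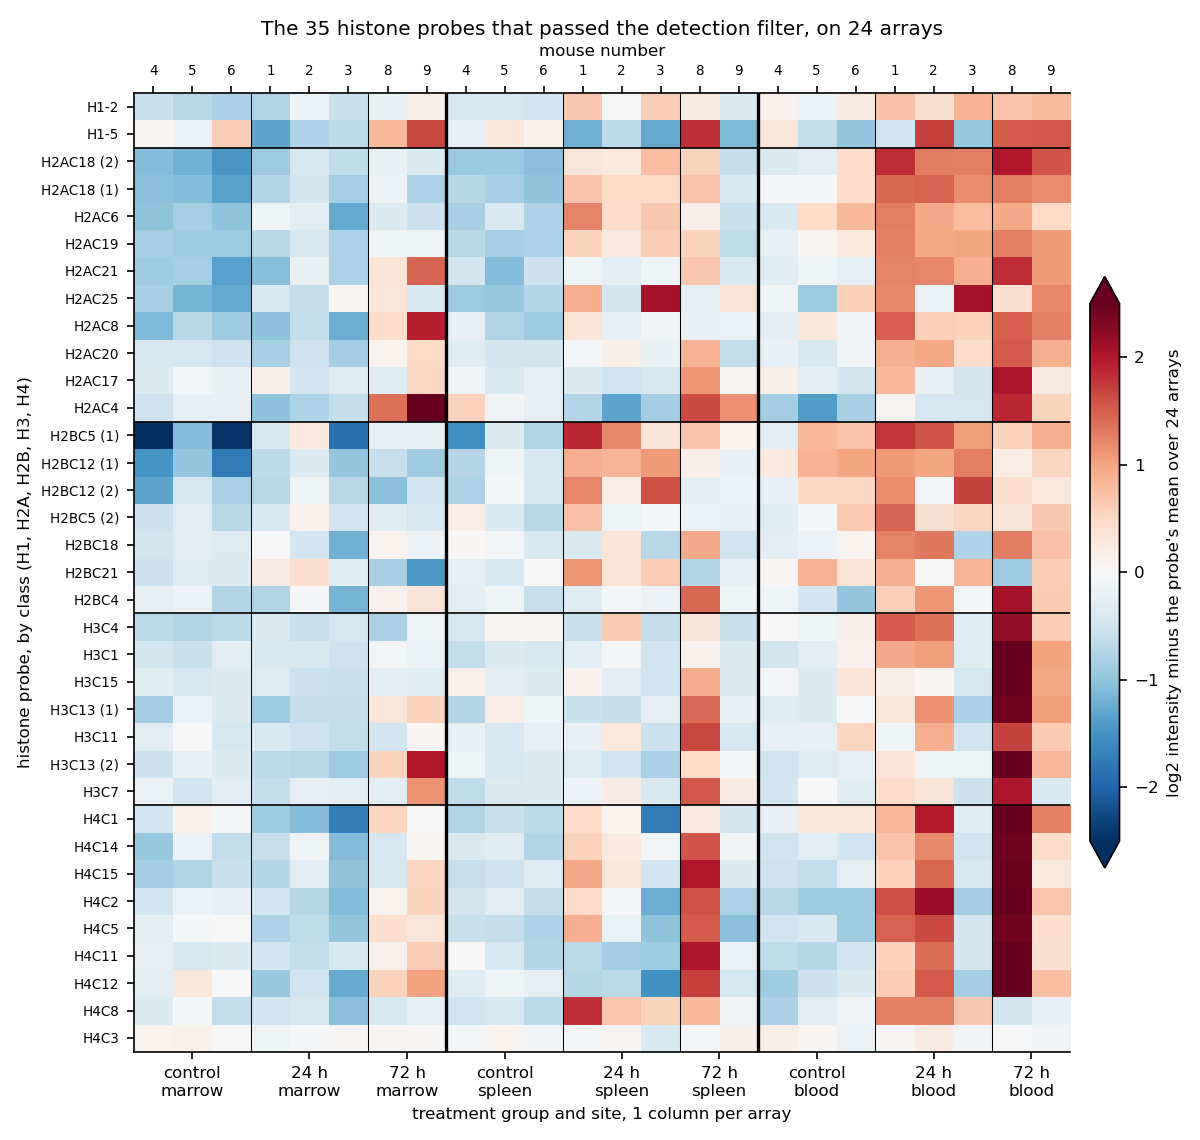
Log2 normalised intensity of the 35 tested histone probes (rows, by class) on 24 arrays (columns, by site, treatment group and mouse), each probe centred on its mean over the arrays. The blood columns of the treated mice are the reddest, above all that of mouse 8 in the H3 and H4 rows, and H4C3 is pale throughout.

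The arrays behaved unevenly in the treated mice. Detected probes numbered between 13066 and 15721 on an array, and the median raw intensity ran from 56.4 to 79.9. The mean correlation of an array with its group was lowest on the 24 h blood arrays (0.915 to 0.951) and on the 72 h blood (0.934) and 72 h spleen arrays (0.935). The 72 h blood array of mouse 8 stood apart, with a mean correlation of 0.851 with control marrow, so counts that it moved by over 1.5 times are given with and without it. The 24 h arrays and control mouse 4 were on BeadChip 1 and all other arrays on BeadChip 2. Markers of the line were present, with MEIS1, CEBPA, FLT3 and CD38 detected on 24 of 24 arrays and PTPRC, which encodes CD45, on 13. MPO and KIT of the same list were detected on 0 arrays, and SPI1 on 23. Of 10 T and NK cell markers, CD3D, CD3E, CD3G, CD8A, PRF1 and KLRD1 were detected on 0 arrays, CD2 on 1, GZMA on 19, and IL7R and NKG7 on 24.

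Blood against marrow gave the most calls among the histone genes. Over the 3 treatment groups, with the mouse as a block, 27 of the 35 tested probes were higher in blood and 0 were lower at an adjusted p under 0.05 (limma, Benjamini-Hochberg adjustment over all 17116 tested probes, two-sided). The background was 43.7% of all tested probes called, 19% of them higher and 24.7% lower. The median difference of the 35 probes was 0.88 on the log2 scale against -0.03 over all tested probes. Of the 35 probes 16 were higher in blood than in marrow in all 8 mice, as were 8.99% of all tested probes. All 7 tested H2B probes were called, 8 of 10 H2A, 6 of 9 H4, 5 of 7 H3 and 1 of 2 H1. Because the filter favours probes that are high somewhere, the 78 were also fitted with no filter: 32 were higher and 0 lower, where 6.44% of 47231 probes were higher, with a median of 0.34. By treatment group with no filter, 6 of the 78 were higher in blood in untreated mice (2.03% of all probes), 20 in 24 h mice (4.16%) and 12 in 72 h mice (1.52%). In these bulk samples a change in the share of cells of a type, such as cells in S phase, and a change in RNA per cell cannot be told apart.

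H2AC18, a chromosome 1 H2A gene, had the smallest p. Its probe 1 lay between 9.73 and 10.92 on the 8 marrow arrays (median 10.26), between 10.06 and 11.79 in spleen (median 11.14) and between 11.03 and 12.55 in blood (median 12.26), in log2 intensity. Marrow and blood did not overlap, and spleen spanned the gap between them. The blood minus marrow difference was 1.68 ± 0.13 (SE, n = 8 mice), 3.21-fold, with a limma adjusted p of 7.27e-07. Probe 2 of H2AC18 lay between 6.18 and 7.45 in marrow (median 6.87) and between 7.29 and 9.65 in blood (median 8.94), with a difference of 1.79 ± 0.17 and a limma adjusted p of 3.29e-06. Both H2AC18 probes were higher in blood in 8 of 8 mice.

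H2BC12, one of the H2B genes with a known polyadenylated message, lay between 10.01 and 11.41 on the marrow arrays with its probe 1 (median 10.83), between 11.02 and 12.82 in spleen (median 11.79) and between 11.94 and 13.03 in blood (median 12.68). The lowest blood array was above the highest marrow array. The difference between blood and marrow was 1.65 ± 0.14, or 3.15-fold, with a limma adjusted p of 1.49e-06, and for probe 2 it was 1.23 ± 0.20 with a limma adjusted p of 0.000292. H2BC5, of the same class, ran from 4.83 to 7.81 in marrow (median 6.81), where probe 1 was detected on 5 of 8 arrays, from 6.03 to 9.45 in spleen (median 7.76) and from 7.29 to 9.34 in blood (median 8.44). Its blood and marrow ranges overlapped, but within each mouse blood was higher in 8 of 8. The H2BC5 difference was 1.87 ± 0.18 with a limma adjusted p of 5.61e-06.

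H2AC19, the neighbour and near-copy of H2AC18, lay between 10.69 and 11.47 in marrow (median 10.85), between 10.77 and 12.22 in spleen (median 11.39) and between 11.37 and 12.86 in blood (median 12.57). The highest marrow array was just above the lowest blood array. The difference was 1.30 ± 0.14 with a limma adjusted p of 9.49e-06, higher in blood in 8 of 8 mice. H2AC6 was a dim probe, detected on 1 of 8 marrow, 4 of 8 spleen and 7 of 8 blood arrays, with medians of 5.39, 5.95 and 6.88. H2AC6 was higher in blood by 1.33 ± 0.15 with a limma adjusted p of 1.88e-05, also in 8 of 8 mice.

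**Figure D2:**
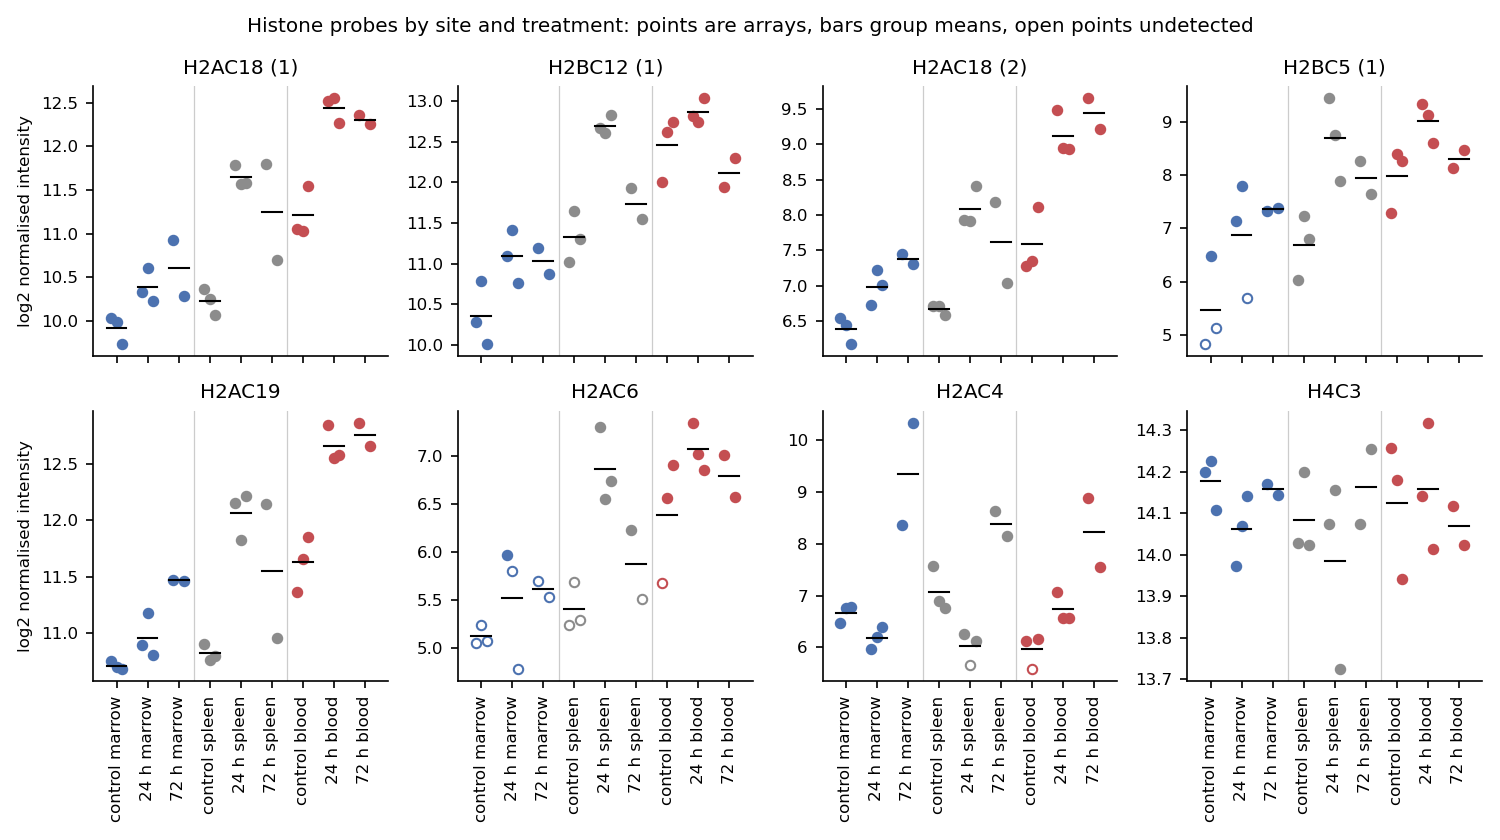
Log2 normalised intensity of 8 histone probes by site and treatment group; points are arrays, open where the probe was not detected, and bars are group means. For H2AC18 probe 1 all marrow arrays are at or below 10.92 and all blood arrays at or above 11.03, while H4C3 stays between 13.73 and 14.32 on every array.

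The other called probes covered every class. H4C1 was higher in blood by 1.36 ± 0.19 and H2AC20 by 0.88 ± 0.15. H1-2, the linker histone whose probe alone of its class was detected on all arrays, was higher by 0.89 ± 0.14. Their limma adjusted p values ran from 8.81e-05 for H4C1 to 0.000419 for H2AC20. In untreated mice H4C1 differed by 0.27 without passing. Undetected on the 3 marrow arrays at 24 h, it was at least 2.94-fold higher in blood there, and at 72 h it differed by 1.76. The tests of site by treatment did not pass for H4C1. H3C4, undetected throughout the 8 marrow arrays, reached detection on 5 of 8 in blood and was at least 1.37-fold higher there, set against the lowest detected signal on each marrow array (limma adjusted p = 0.000883). H3C1, H3C15, H3C11 and H2BC5 probe 2 were also called and were detected on 0 of 8 marrow arrays and on 2 or 3 of 8 blood arrays, too dim for a fold change. These H3 probes add calls but little measured signal in marrow, and H3C1 passed the filter through blood arrays alone.

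The 8 tested probes that were not called also spanned the classes. H4C3, whose raw intensity of 11161.5 to 21586.6 was exceeded by at most 0.699% of probes on every array, differed by -0.01 ± 0.09 (limma adjusted p = 0.914), and its arrays lay between 13.97 and 14.22 in marrow and between 13.94 and 14.32 in blood. The brightest probe of each array lay between 20739.5 and 28126.5, and whether H4C3 was near the scanner's limit was not tested. H2AC4 differed by -0.43 ± 0.27 (limma adjusted p = 0.21), H1-5 by 0.23 ± 0.37 and H3C7 by 0.30 ± 0.29, and H4C11, H4C12, H2AC17 and H3C13 probe 2 by 0.43 to 0.74 without passing the threshold. Of the H3C13 probes, probe 1 was called at 0.82 ± 0.24 and probe 2 was not at 0.47 ± 0.26.

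**Figure D3:**
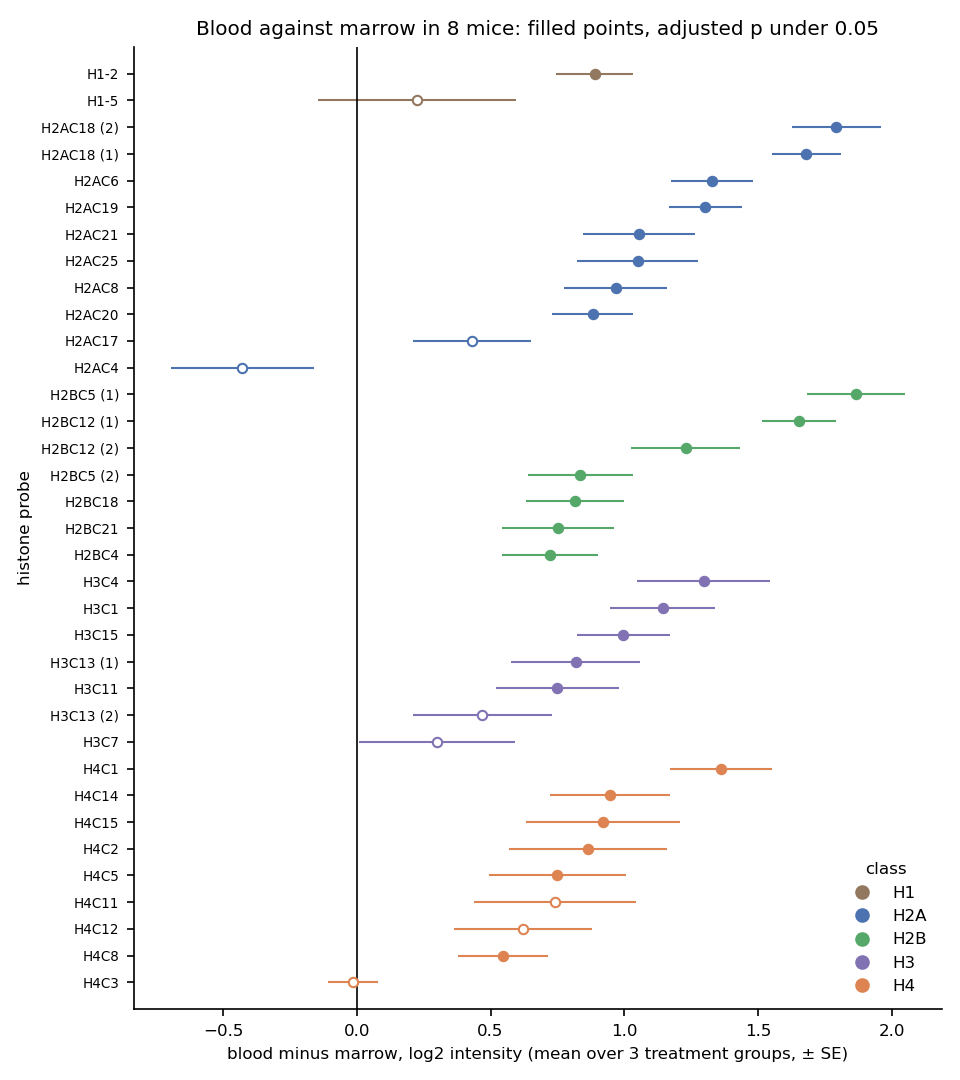
Blood minus marrow difference in log2 intensity for the 35 tested histone probes, as the mean over 3 treatment groups with its standard error, coloured by class; filled points passed an adjusted p of 0.05. The values run from -0.43 for H2AC4 to 1.87 for H2BC5 probe 1, and all 7 H2B points are filled.

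In the untreated mice the called probes were of the H2A, H2B and H1 classes. Of the 35 probes 8 were higher in blood than in marrow and 0 lower, against 12.8% of all tested probes called and 6.96% called higher, with a median of 0.26 over the 35. H2BC12 probe 1 was at 10.28, 10.79 and 10.01 in the marrow of mice 4, 5 and 6 and at 12.01, 12.62 and 12.75 in their blood. Blood was above marrow in all 3, by 2.10 ± 0.22 in the mean (limma). H2BC5 probe 1 was at 4.83, 6.47 and 5.12 in control marrow, detected on 1 of 3 arrays, and at 7.29, 8.40 and 8.28 in blood, a difference of 2.52. The other called probes were both of H2AC18 (1.29 and 1.19), H2AC6 (1.26), H2BC12 probe 2 (1.13), H2AC19 (0.92) and H1-2 (0.74). Both H2AC6 and H2BC12 probe 2 lacked detection in control marrow (0 of 3), so their excess in blood is a bound, at least 1.40-fold for H2AC6 and at least 1.55-fold for H2BC12. No H3 or H4 probe was called here: the 9 H4 probes had a median of -0.06, the 7 H3 probes of 0.26, the 10 H2A probes of 0.89 and the 7 H2B probes of 0.81. H3C1, H3C15 and H3C13 probe 2 were detected on 0 of 3 control marrow and 0 of 3 control blood arrays. H3C4, H3C7 and H3C11 were detected on 0 of 3 in marrow and 1 of 3 in blood. The H3 median is thus set mostly by values near background and cannot show whether that class differed.

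In the treated mice more classes were called. After 24 h, 23 of the 35 were higher in blood than in marrow (14.3% of all tested probes were called higher and 32.9% either way), with a median of 1.21, among them 6 of 9 H4 and 2 of 7 H3 probes. After 72 h, 11 of 35 were (5.14% of all higher, 13.2% either way), with a median of 1.09, among them 2 H4 and 3 H3 probes. Without the 72 h blood array of mouse 8, which left mouse 9 alone in that group with its spread taken from the other groups, 7 were called (5.51% of all tested probes), 6 higher and H2AC4 lower. Of these, 5 were among the 11, with 0 H4 probes and 1 H3 probe, H3C15. Whether the site differences depended on treatment was tested directly, and 0 of 35 passed for 24 h (limma F test, 13 at an unadjusted p under 0.05, 0.111% of all tested probes called) and 0 of 35 for 72 h (9 at an unadjusted p under 0.05, 0.263% called). The smallest p at 24 h was that of H4C8 (limma adjusted p = 0.0828), followed by H4C1 (0.152). H4C8 lay at 7.06, 7.38 and 6.81 in control marrow, at 6.61, 7.13 and 7.34 in control blood, at 6.94, 7.02 and 6.37 in 24 h marrow and at 8.68, 8.67 and 8.10 in 24 h blood. Only the 24 h blood values of these 4 groups stood clear of the rest. Spleen rose as well, from a mean of 6.89 in control to 8.45 at 24 h, against a mean of 8.48 in 24 h blood. At 72 h the smallest were H3C15 (limma adjusted p = 0.103) and H3C1 (0.11). Both passed the detection filter only through treated arrays. For H3C15 these were 1 spleen and 2 blood arrays at 72 h, and for H3C1 1 blood array at 24 h and 2 at 72 h. For H2BC12 probe 1 the F test at 72 h gave a limma adjusted p of 0.284. Taken singly, 0 of 35 passed for the change in spleen minus marrow at 24 h (limma, 7 at an unadjusted p under 0.05, 0.0117% of all called) or at 72 h (1 at an unadjusted p under 0.05, 0.00584% called). For the change in blood minus marrow 0 of 35 passed at 24 h (limma, 0.105% of all called) and 0 at 72 h (0.835% called). Its smallest p at 24 h was that of H4C8, with a change of 1.76 ± 0.38 (limma adjusted p = 0.124).

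Spleen lay between the other sites for some of these genes. Over the 3 treatment groups 6 of 35 probes were higher in spleen than in marrow and 0 lower, where 8.44% of all tested probes were called and 4.6% higher, with a median of 0.28. H2BC12 probe 1 was higher by 1.10 ± 0.14 (limma adjusted p = 0.000317) and H2BC5 probe 1 by 1.21 ± 0.18 (limma adjusted p = 0.000988), and H2AC18 probe 1 (0.74), H4C8 (0.72), H2BC12 probe 2 (0.83) and H2AC6 (0.63) followed. All 6 were among the 27 higher in blood than in marrow. H4C8 did not lie between the sites, with means of 6.97 in marrow, 7.70 in spleen and 7.59 in blood. In untreated mice 0 of 35 passed for spleen against marrow in limma (2 at an unadjusted p under 0.05, 0.351% of all tested probes called). After 24 h 9 of 35 were higher in spleen (5.38% of all higher, 10.9% either way), and after 72 h 0 passed (3 at an unadjusted p under 0.05, 0.204% called).

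Blood exceeded spleen as well. Over the 3 treatment groups 16 of 35 were higher in blood and 0 lower, against 20.5% of all tested probes called and 8.94% higher. H2AC18 differed by 1.25 ± 0.17 with probe 2 (limma adjusted p = 0.000732) and by 0.94 ± 0.13 with probe 1 (limma adjusted p = 0.00087), and H4C1 by 1.38 ± 0.19. Within untreated mice 4 of 35 were higher in blood than in spleen (2.68% of all tested probes were called higher and 4.12% either way), namely H2BC12 probe 1 (1.13), H2AC18 probe 1 (0.98), H2BC5 probe 1 (1.30) and H2AC6, which was undetected on the 3 control spleen arrays and at least 1.43-fold higher in blood. Without a replicate block for the mouse this last count was 1. Within 24 h mice 0 of 35 passed (limma, 15 at an unadjusted p under 0.05, 0.97% of all called), or 5 without the 72 h blood array of mouse 8 (4.61% called), namely both H2AC18 probes, H4C1, H2AC21 and H3C1. Within 72 h mice 7 of 35 were higher in blood (1.14% of all higher, 2.99% either way), or 0 without the blood array of mouse 8.

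The site comparisons were also run within each BeadChip. On BeadChip 1 (4 mice) 9 of 35 and on BeadChip 2 (4 mice) 13 of 35 histone probes were higher in blood than in marrow, against 27 pooled. Of all tested probes 3.07% and 6.32% were called higher in these fits, against 19% pooled. For spleen against marrow the counts were 0 and 0 against 6 (0.0584% and 0.117% of all higher), and for blood against spleen 0 and 3 against 16 (0.0292% and 0.795%). Without the 72 h blood array of mouse 8, 23 of 35 were higher in blood than in marrow, and 1, H2AC4, was lower by 0.77 ± 0.25 (limma adjusted p = 0.0248). Over the 11 probes detected on all arrays, the median blood minus marrow difference was 0.61, 0.54 and 1.03 in control mice 4, 5 and 6, 1.72, 1.37 and 1.72 in the 24 h mice 1, 2 and 3, and 0.91 and 1.19 in the 72 h mice 8 and 9. It was above 0 in every mouse, and the 24 h mice were above the control mice.

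In the marrow few of these genes were called under the inhibitor. At 24 h 0 of 35 passed in limma (3 at an unadjusted p under 0.05, 0.158% of all tested probes called). At 72 h 3 of 35 rose, where 1.87% of all tested probes were called and 1.08% higher, and all 3 are H2A genes. H2AC4 was at 6.47, 6.76 and 6.79 in control marrow and at 8.37 and 10.33 in the 72 h marrow of mice 8 and 9, a rise of 2.67 ± 0.44 (limma adjusted p = 0.00315). H2AC8 was at 5.84, 6.24 and 6.03 in control and at 7.40 and 8.87 at 72 h, a rise of 2.10 ± 0.36 (limma adjusted p = 0.00471). H2AC21 was undetected on the 3 control marrow arrays and was at 6.71 and 7.82 at 72 h, at least 2.57-fold higher (limma adjusted p = 0.00677). In all 3 both treated arrays were above every control array, as in 27.1% of all tested probes, and mouse 9 was the higher. Erythroid markers moved with them: 2 of 4 tested, HBD and ALAS2, were higher in 72 h than in control marrow, and the mean of the 9 listed genes on the array was 6.05, 6.02 and 6.21 in control mice 4, 5 and 6, 6.98 in mouse 8 and 7.59 in mouse 9. Their part in the H2A result was not tested. Within BeadChip 2, which held 2 control and both 72 h mice, 0 passed, with H2AC4 at 2.57 ± 0.59.

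In the spleen 10 of 35 rose at 24 h, where 9.72% of all tested probes were called and 4.93% higher, and 0 fell. They were 5 of the 10 H2A probes, 3 of 7 H2B, 1 of 9 H4, 1 of 2 H1 and 0 of 7 H3. H2AC18 probe 1 was at 10.37, 10.25 and 10.06 in control spleen and at 11.78, 11.57 and 11.58 at 24 h, a rise of 1.42 ± 0.24 (limma adjusted p = 0.00211). H2BC12 probe 1 went from 11.02, 11.64 and 11.31 to 12.66, 12.61 and 12.82, a rise of 1.37 ± 0.24 (limma adjusted p = 0.00255). H2AC19 went from 10.90, 10.77 and 10.80 to 12.15, 11.82 and 12.22, a rise of 1.24 ± 0.23 (limma adjusted p = 0.003). The groups did not overlap for any of the 3, where 17.6% of all tested probes had every treated array above every control array. H2AC18 probe 2 (1.41), H4C8 (1.56), H1-2 (0.87), H2BC5 probe 1 (2.01), H2BC12 probe 2 (1.43) and H2AC25 (1.69) also rose, and H2AC6, detected on 0 of 3 control and 3 of 3 treated spleen arrays, was at least 1.99-fold higher. Within BeadChip 1, with a single control mouse whose spread was taken from the other groups, 0 passed and H2BC12 probe 1 differed by 1.68 ± 0.31. At 72 h 0 of 35 passed in spleen (limma, 11 at an unadjusted p under 0.05, 0.619% called). Without mouse 9, which left mouse 8 alone with its spread taken from the other groups, 19 of 35 passed, where 26.2% of all tested probes were called.

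In the blood the 72 h group carried most of the calls, and leaving out 1 array removed all but 1 of them. At 24 h 0 of 35 passed (limma, 14 at an unadjusted p under 0.05, 0.0175% of all tested probes called and 0.0117% higher, median 0.77). Leaving out mouse 3 gave 13 higher, among them H4C2, H4C5 and H4C1, where 6.44% of all tested probes were called higher and 15.5% either way. At 72 h 23 of 35 were higher than in control blood and 0 lower, where 30.7% of all tested probes were called and 13.3% higher, and the median over the 35 was 1.41. Without the 72 h blood array of mouse 8 the group was mouse 9 alone, with its spread taken from the other groups, and the count was 1 (2.05% of all tested probes called), H2AC18 probe 2, by 1.63 ± 0.38 (limma adjusted p = 0.0444). The median over the 35 was then 1.00. With both mice, 6 of the 11 probes detected on all arrays were higher at 72 h, where 16.6% of 9920 such probes were.

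The members that led the 72 h blood comparison show how the 2 mice differed. H2AC18 probe 2 was at 7.29, 7.36 and 8.11 in control blood and at 9.65 and 9.22 in mice 8 and 9, a rise of 1.85 ± 0.31 (limma adjusted p = 0.00184). Both mice were above all controls, as for 25.7% of all tested probes, and by similar amounts. H3C1, detected on 0 of 3 control blood arrays with values of 4.72, 4.89 and 5.31, was at 8.36 in mouse 8 and 6.19 in mouse 9, at least 2.68-fold higher (limma adjusted p = 0.00297). H3C1 passed the detection filter only through treated blood arrays, 1 at 24 h and 2 at 72 h, so its call partly follows from the filter. H2AC4 was at 6.13, 5.59 and 6.17 in control blood and at 8.89 and 7.55 at 72 h, a rise of 2.26 ± 0.44 (limma adjusted p = 0.00305). H3C13 probe 2 was undetected on the 3 control arrays and was at 8.47 in mouse 8 and 6.31 in mouse 9, at least 2.91-fold higher (limma adjusted p = 0.00305). That probe passed the filter only through 72 h arrays, 2 of marrow and 2 of blood. In H3C1, H2AC4 and H3C13 mouse 8 was well above mouse 9.

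The calls in 72 h blood fell in all 5 classes. In that group 7 of 9 H4, 5 of 7 H3, 8 of 10 H2A, 2 of 2 H1 and 1 of 7 H2B probes were called. Of the called probes H3C15, H2AC17 and the H2B probe, H2BC4, were detected on treated arrays only, as were H3C1 and H3C13 probe 2. Their calls therefore partly follow from the filter. H4C12, detected on all arrays, was at 6.79, 7.15 and 7.33 in control blood and at 10.79 in mouse 8 and 8.43 in mouse 9, a rise of 2.52 ± 0.64 (limma adjusted p = 0.00925). H4C2 and H4C11, undetected on the 3 control blood arrays, were at least 4.27-fold and at least 3.41-fold higher. H4C11 was undetected on the control arrays of every site, so it too passed the filter only through treated arrays. H2BC12 probe 1, which led the untreated blood against marrow comparison, was at 11.94 and 12.29 in 72 h blood against 12.01, 12.62 and 12.75 in control blood, a difference of -0.34 that did not pass. Whether a class moved differently in blood at 72 h than in spleen at 24 h was not tested, and both comparisons use the same 3 control mice.

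**Figure D4:**
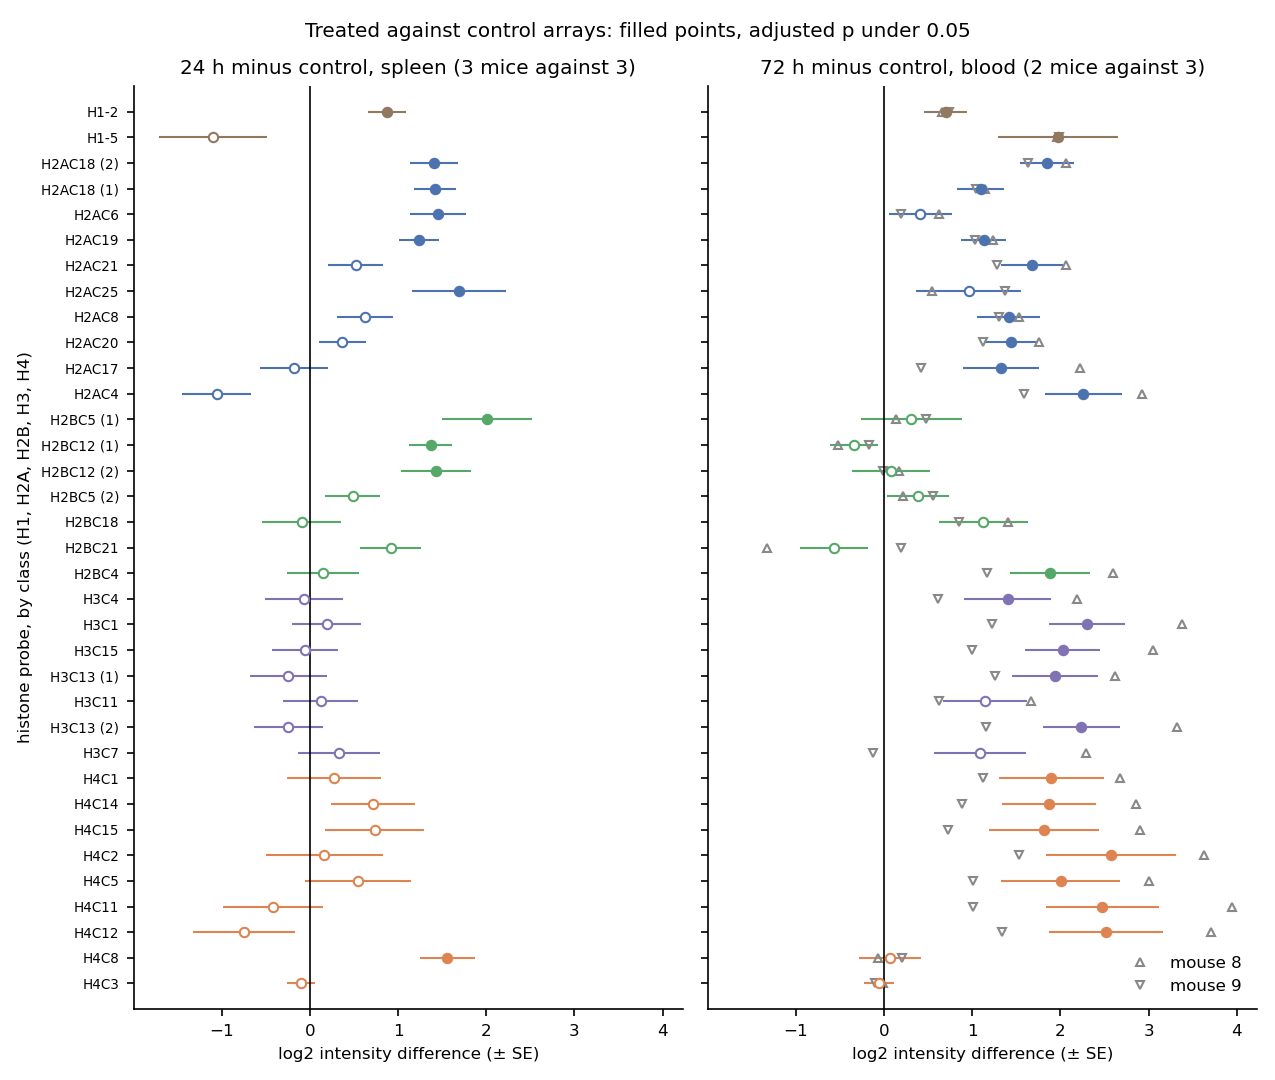
Treated minus control difference in log2 intensity for the 35 tested histone probes, with standard errors, in spleen at 24 h (left) and blood at 72 h (right); filled points passed an adjusted p of 0.05, colours are classes, and grey triangles are the 2 single 72 h mice against the control mean. In spleen the filled points are H2A, H2B, H1-2 and H4C8; in blood the H3 and H4 points of mouse 8 lie to the right of those of mouse 9.

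Counting probes whose treated and control arrays did not overlap gave the following. Above every control array were 6 of 35 in 24 h marrow (14.7% of all tested probes), 14 in 24 h spleen (17.6%), 13 in 24 h blood (7.35%), 24 in 72 h marrow (27.1%), 16 in 72 h spleen (22.4%) and 25 in 72 h blood (25.7%). Below every control array were 8 in 24 h marrow (13.8% of all tested probes), 3 in 24 h spleen (18.4%), 0 in 24 h blood (6.22%), 1 in 72 h marrow (27.7%), 0 in 72 h spleen (23.6%) and 0 in 72 h blood (29.4%).

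Genes of DNA replication, mitosis and histone assembly were mostly lower in blood, where the histone probes were higher. Lists were read with 1 probe a gene and adjusted over all tested probes, against the background of 43.7% called in blood minus marrow. Of 23 tested DNA replication genes 0 were higher and 22 lower in blood, with a median of -0.79. PCNA, the sliding clamp of the replication fork, differed by -0.79 ± 0.14, MCM2, a subunit of the replicative helicase, by -0.96 ± 0.11, and RRM2, a subunit of ribonucleotide reductase, by -1.47 ± 0.16. Of 19 mitosis genes 0 were higher and 18 lower, with a median of -1.01. Of the 17 histone chaperone and assembly genes 1 was higher and 9 lower, with a median of -0.61. They included CHAF1B (-0.86 ± 0.15) and CHAF1A (-0.77 ± 0.15), subunits of the complex that deposits new H3 and H4 behind the fork, and NASP (-0.61 ± 0.11), which keeps the soluble H3 and H4 pool. CABIN1, a subunit of the HIRA complex, was the 1 higher.

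Genes that act on histone messages were mixed. Of 17 tested processing and decay genes 2 were higher in blood and 5 lower, with a median of -0.19. Over all tested probes 43.7% were called and 19% were higher, so the number called in this list was near the background. SLBP, which binds the stem-loop, averaged 9.39 in marrow and 8.38 in blood, a difference of -1.01 ± 0.24 (limma adjusted p = 0.00372). LSM10 of the U7 snRNP was higher by 0.54 ± 0.13 and TUT7, which adds uridines to histone messages during their decay, by 0.65 ± 0.15. NCBP2 and NCBP1 of the cap-binding complex were lower by a log2 difference of -0.70 and -0.50. NPAT, the coactivator of histone transcription, was detected on 0 arrays, while CDK2 (-0.95 ± 0.18) and CCNE1 (-0.71 ± 0.12), the kinase and the cyclin that activate it, were lower. Not all of that list averaged lower: HINFP was at 7.88 in marrow and 8.17 in blood, and YY1 at 11.56 and 11.63. E2F1, CCNA2 and CREBBP averaged lower in blood, and CCNE2 was detected on 0 arrays.

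The replication-independent histones, whose messages carry poly(A) tails, were seldom called. Of 11 tested genes 1 was higher and 2 lower, with a median of -0.03. H3-3A and H3-3B, the H3.3 genes that work outside S phase, differed by 0.08 ± 0.08 and -0.03 ± 0.14, H2AX by -0.05 ± 0.13 and H1-10 by 0.20 ± 0.18, none past the threshold. H3-3A averaged 14.09 in marrow and 14.17 in blood, as bright as H4C3, and whether it was near the scanner's limit was not tested. H2AJ was higher by 0.41 ± 0.15, and CENPA, the centromeric H3, was lower with a difference of -1.49 ± 0.17, as was H2AZ1 with -0.51 ± 0.10.

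**Figure D5:**
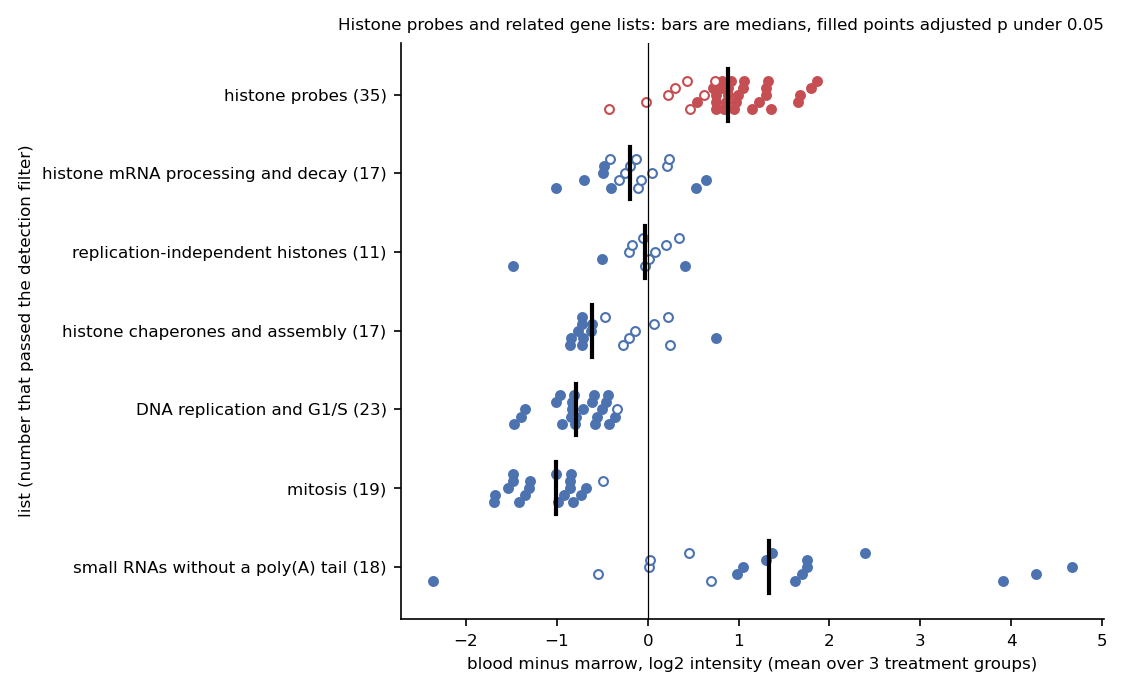
Blood minus marrow difference in log2 intensity, mean over 3 treatment groups, for the 35 tested histone probes (red) and 6 lists of related genes (blue, 1 probe a gene); black bars are medians and filled points passed an adjusted p of 0.05. The histone probes (median 0.88) and the small RNAs without a poly(A) tail (median 1.34) lie to the right of 0, and the replication (-0.79) and mitosis (-1.01) genes to the left.

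Other RNAs that lack a poly(A) tail moved with the histone probes. Of 18 tested small nuclear, nucleolar and cytoplasmic RNAs 12 were higher in blood than in marrow and 1 lower, with a median of 1.34. SNORD3C, a U3 small nucleolar RNA, averaged 7.45 in control and 7.94 in 72 h marrow against 11.3 and 13.1 in blood, and differed by 4.67 ± 0.33 over the 3 treatment groups. RN7SK, the RNA that holds the elongation factor P-TEFb inactive, differed by 1.75 ± 0.20, while RN7SL1 (0.03 ± 0.09) and RNY3 (0.02 ± 0.11) did not pass. RN7SL1 lay between 13.75 and 14.26 on the arrays, as bright as H4C3, and whether it was near the scanner's limit was not tested. The mean over the 20 listed small RNAs on the array was 8.05, 7.74 and 8.18 in the blood of control mice 4, 5 and 6, 9.49, 9.57 and 7.68 in that of the 24 h mice 1, 2 and 3, and 10.3 and 8.34 in that of the 72 h mice 8 and 9. Marrow arrays lay between 7.22 and 7.72. The blood arrays with the highest small RNA means, those of mice 8, 2 and 1, had 46, 28 and 34 of the 78 histone probes detected, and the blood array of mouse 3 had 21. The blood array of mouse 9 had 36 detected, the next highest count after mouse 8, at a small RNA mean near that of control blood. In spleen the 72 h array of mouse 8 had a mean of 8.54 and 33 histone probes detected, and that of mouse 9 had 7.57 and 24. The part of RNA quality or of priming on RNA without a tail in the histone result was not tested.

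Markers of mature monocytes rose with the histone probes as well. Of 11 tested genes 8 were higher in blood and 1 lower, with a median of 1.44, and their mean lay between 7.95 and 8.24 on control marrow arrays, between 9.12 and 9.83 on control blood arrays and at 10.2 on both 72 h blood arrays. Of 4 tested erythroid genes 0 were higher in blood and 4 lower. The part of either in the histone result was not tested.

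Genes that lie side by side in the histone clusters share promoters in divergent H2A and H2B pairs. RefSeq gave 14 pairs of neighbouring H2A and H2B genes among the 68. H2AC11 and H2BC15 are each in more than 1 of them, so a neighbouring pair need not share a promoter. In 2 pairs both genes were tested, in 5 pairs only 1 was, and in 7 pairs neither. H2AC20 and H2BC21 on chromosome 1 differed between blood and marrow by 0.88 ± 0.15 and 0.75 ± 0.21, and H2AC6 and H2BC4 on chromosome 6 by 1.33 ± 0.15 and 0.72 ± 0.18, all 4 called. In 72 h blood H2AC20 was at 13.17 and 12.54 in mice 8 and 9 against 11.44, 11.25 and 11.56 in control, and H2BC21 was at 8.47 and 9.99 against 9.41, 10.26 and 9.72. H2AC20 rose by 1.44 ± 0.30 (limma adjusted p = 0.00409), a call lost without the array of mouse 8, and H2BC21 differed by -0.57 ± 0.39 without passing. The difference between the 2 genes was not tested.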

How the data were processed

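The authors deposited mean bead intensity per probe, without background subtraction, with a detection p-value beside it, and a table of background-subtracted intensity, used as an alternative. GenomeStudio is named in the submitters' processing notes, with no version. Symbols came from the platform listing, and 77 of the 78 member probes kept theirs in RefSeq. The function neqc in limma 3.58.1 (R 4.3.3) corrected background through the detection p-values with an offset of 16, applied quantile normalisation and took log2. Probes with a detection p under 0.01 on at least 3 of 24 arrays were tested (17116 probes). Site comparisons used the mouse as a fixed replicate block, because the numbers in the titles pair arrays of 1 animal. Deviations from group means correlated by 0.272 on average in 24 same-mouse pairs and by -0.155 in 42 others. Deviations within a group cancel, so the negative value partly follows from the positive one and is not a separate baseline. Treatment comparisons used the 9 group means. The fit was tested on simulated data. Lists used the brightest tested probe per gene. Values by array or group were given for the 6 member probes with the smallest p in blood against marrow, the 2 with the smallest p in each other site test and each test of site by treatment, and up to 4 called members per treatment comparison. H2AC20 and H2BC21 were added as a neighbouring pair after their values were seen, as were the list genes named beyond the 4 with the smallest p. Members and lists were chosen with earlier results of these data known. The genome build is not given in the sources used here.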

Additional observations from a re-analysis of the deposited data

How the results depend on the processing

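Counts are of the 35 tested histone probes called, and the cause of a move was not tested. Blood against marrow (27) gave 9 within BeadChip 1, 13 within BeadChip 2 and 9 of 11 probes detected on all arrays, and 23 to 31 with a mouse left out. In untreated mice (8) it gave 0 and 4 within BeadChips 1 and 2, 5 with median scaling, 3 with the deposited background-subtracted values, 5 with detection on all arrays, and 3 to 11 with a mouse left out. Spleen against marrow (6) gave 0 and 0 within BeadChips and 3 to 15 with a mouse left out, and in untreated mice (0) it gave 1 with an intensity trend. Blood against spleen (16) gave 0 and 3 within BeadChips, 7 with the background-subtracted values, 7 with detection on all arrays, and 10 to 20 with a mouse left out. In untreated mice (4) it gave 1 with no replicate block, 0 and 0 within BeadChips, 0 with median scaling, 0 with the background-subtracted values, 2 with no filter, and 0 to 7 with a mouse left out. The block changed no other count by over 1.5 times. At 24 h, spleen (10) gave 0 within BeadChip 1, 2 with the background-subtracted values and 5 to 12 with a mouse left out, and blood (0) gave 2 with detection on all arrays and 0 to 13. At 72 h, marrow (3) gave 0 within BeadChip 2, 1 with the background-subtracted values, 0 with detection on all arrays and 2 to 5 with a mouse left out, and spleen (0) gave 0 to 19. Blood at 72 h (23) gave 11 within BeadChip 2, 12 with the background-subtracted values, 6 with detection on all arrays, 1 without the blood array of mouse 8 (chosen after seeing the data) and 7 to 25 with a mouse left out. The tests of site by treatment (0 and 0) gave 0 to 5 at 24 h and 0 to 14 at 72 h. Among the values of single named probes under these settings, 378 kept direction and side of the threshold, 26 no longer passed and 0 reversed.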
